A study of Mus musculus with 17 samples.

Results

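A set of 10 genes of fibroblast growth factor (FGF) signalling were followed in alveolar type 2 (AT2) cells of the mouse lung. They are the receptors Fgfr1, Fgfr2 and Fgfr3, the Sprouty genes Spry1, Spry2 and Spry4, the Sprouty-related genes Spred1 and Spred2, and the transcription factors Etv4 and Etv5. They were taken by symbol, matched to the Ensembl gene IDs that label the rows, and make up 10 of the 43430 IDs in each of 2 count tables. AT2 cells, which make surfactant and renew the alveolar epithelium, had been flow-sorted from C57BL/6J mice aged 2 months, and their RNA sequenced as 17 libraries. In the first experiment, 4 libraries came from otherwise untreated mice given vehicle (saline in the sample titles) and 4 from mice given ISRIB, a small molecule inhibitor of the integrated stress response, 24 h before sorting. These were poly(A)-enriched libraries from 3 ng of RNA. In the second, naive mice gave 4 libraries and mice that had received bleomycin 14 days earlier gave 5. Bleomycin injures the lung epithelium and is used to model pulmonary fibrosis. These were total-RNA libraries from 0.35 ng of RNA. All 9 are also labelled saline or vehicle. The labels give no dose, no sorting markers, and do not say that the libraries of a group came from separate animals, so the p-values measure the spread between these libraries, which may be partly technical. The 2 experiments differed in kit and depth and were compared only within themselves.

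FGF ligands bind their receptors together with heparan sulfate and activate the RAS to ERK kinase cascade. ERK signalling raises transcription of the ETS-family factors ETV4 and ETV5 and of Sprouty proteins, and Sprouty and Spred proteins in turn restrain the cascade, so that these genes are used as readouts of receptor activity. In the lung, FGFR2 in the epithelium is required for branching during development, and both FGFR2 and ETV5 are known for their part in maintaining adult AT2 cells.

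Every library carried high levels of AT2 markers. The summed level of 10 AT2 genes, in counts scaled to library size (CPM, with TMM factors and a total of 1000000), ranged from 176929 to 189376 in the poly(A) libraries and from 50345 to 88471 in the total-RNA libraries. Library totals were 10493574 to 15727139 counts in the poly(A) table and 3295257 to 6333166 in the total-RNA table, where gene models resembling ribosomal RNA took 20.8% to 31.9% of the counts. The bleomycin libraries were less alike than the naive ones, with a mean rank correlation to their own group over 11223 genes of 0.937 to 0.957 against 0.972 to 0.975. They also carried more RNA of fibroblast markers: the summed level of 10 fibroblast markers was 17.5 to 115 CPM after bleomycin and 4.77 to 12.4 CPM in naive libraries, with 3 of the 3 markers tested called higher by edgeR and 1 by limma-voom, while Lum was at 0 in all 9 libraries. Marker sums in naive and bleomycin libraries overlapped for endothelium (19.7 to 32.5 and 23.0 to 81.7 CPM, 2 of 5 tested called higher by edgeR, 0 by limma-voom), mesothelium (0.30 to 3.85 and 3.44 to 18.9 CPM, 1 of 1 called higher by edgeR, 0 by limma-voom) and macrophages (7.26 to 9.39 and 6.32 to 10.3 CPM). The sum of 8 airway markers was larger, at 448 to 907 CPM in naive and 483 to 927 CPM in bleomycin libraries. Of 6 tested, edgeR called 1 higher, Foxj1, and limma-voom called 0. In the poly(A) libraries the airway sum was 3830 to 4289 CPM with vehicle and 2367 to 4165 CPM with ISRIB. Over all genes, edgeR called 11.2% higher after bleomycin.

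Promoter sequence was given for 7 of the 10 genes, in 9 promoters (RefSeq, GRCm38.p6, 250 bases before to 50 after the start). Those of Fgfr2, Fgfr3, Spry1 and Etv5 are shown because all 4 genes were called lower after bleomycin, and that of Spry2 because it was the only one of the 9 to hold the ETS motif CCGGAA. Capitals mark matches, on either strand, to CCGGAA or to the weaker ETS motif CAGGAA, which do not overlap here.
Fgfr2, chr7:130266759-130267058, minus strand: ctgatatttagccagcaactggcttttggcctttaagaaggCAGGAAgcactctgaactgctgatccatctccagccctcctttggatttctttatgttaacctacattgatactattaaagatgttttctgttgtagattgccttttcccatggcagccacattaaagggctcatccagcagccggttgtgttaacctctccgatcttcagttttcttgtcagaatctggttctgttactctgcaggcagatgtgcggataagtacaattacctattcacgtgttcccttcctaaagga
Fgfr3, first start, chr5:33721474-33721773, plus strand: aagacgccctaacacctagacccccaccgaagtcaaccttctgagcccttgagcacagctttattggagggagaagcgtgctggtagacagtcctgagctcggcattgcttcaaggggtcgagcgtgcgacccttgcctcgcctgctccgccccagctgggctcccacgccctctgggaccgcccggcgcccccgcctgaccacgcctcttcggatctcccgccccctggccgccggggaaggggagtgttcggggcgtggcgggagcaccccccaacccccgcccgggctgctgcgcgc
Fgfr3, second start, chr5:33722056-33722355, plus strand: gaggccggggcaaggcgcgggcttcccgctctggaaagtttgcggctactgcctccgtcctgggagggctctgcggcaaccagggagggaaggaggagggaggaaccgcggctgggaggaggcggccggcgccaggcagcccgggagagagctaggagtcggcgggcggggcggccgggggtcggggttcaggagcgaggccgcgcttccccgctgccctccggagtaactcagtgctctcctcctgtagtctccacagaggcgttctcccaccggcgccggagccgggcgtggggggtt
Spry1, chr3:37639697-37639996, plus strand: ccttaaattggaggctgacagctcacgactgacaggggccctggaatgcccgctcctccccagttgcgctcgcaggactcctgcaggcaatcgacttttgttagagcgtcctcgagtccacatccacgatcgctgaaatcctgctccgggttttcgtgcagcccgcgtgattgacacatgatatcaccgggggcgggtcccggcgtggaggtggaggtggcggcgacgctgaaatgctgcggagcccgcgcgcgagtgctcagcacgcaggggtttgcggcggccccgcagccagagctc
Etv5, first start, chr16:22439521-22439820, minus strand: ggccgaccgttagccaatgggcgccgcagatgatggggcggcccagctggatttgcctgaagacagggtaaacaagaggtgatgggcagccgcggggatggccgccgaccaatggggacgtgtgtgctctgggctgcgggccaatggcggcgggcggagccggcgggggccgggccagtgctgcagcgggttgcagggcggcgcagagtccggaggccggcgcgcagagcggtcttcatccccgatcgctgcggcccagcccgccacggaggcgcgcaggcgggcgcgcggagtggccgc
Etv5, second start, chr16:22438319-22438618, minus strand: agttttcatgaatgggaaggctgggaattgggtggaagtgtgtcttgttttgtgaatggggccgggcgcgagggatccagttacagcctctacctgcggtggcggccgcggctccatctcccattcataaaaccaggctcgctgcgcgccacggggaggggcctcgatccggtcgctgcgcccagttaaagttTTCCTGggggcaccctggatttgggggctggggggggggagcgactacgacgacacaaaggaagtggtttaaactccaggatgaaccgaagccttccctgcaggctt
Spry2, chr14:105896770-105897069, minus strand: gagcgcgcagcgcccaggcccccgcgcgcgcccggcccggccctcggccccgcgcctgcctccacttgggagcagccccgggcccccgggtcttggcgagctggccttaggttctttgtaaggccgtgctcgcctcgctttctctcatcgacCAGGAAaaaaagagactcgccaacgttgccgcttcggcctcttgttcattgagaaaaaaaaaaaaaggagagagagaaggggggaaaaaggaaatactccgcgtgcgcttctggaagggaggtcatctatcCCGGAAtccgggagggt
CCGGAA was found in 1 of the 9 promoters and in 14.9% of all 32851 promoters of that length. CAGGAA was found in 4 of the 9, those of Fgfr2, Spry2, Spred1 and the second start of Etv5, and in 30.6% of all. Neither motif was in the promoters of Fgfr3, Spry1 and Spred2 or at the first start of Etv5. The AP-1 motif TGANTCA was in none of the 9 and in 7.81% of all. The promoters differed in base composition, from 43.7% G and C at Fgfr2 to 74.0% at the first start of Etv5, against a median of 52.7% over all promoters. A match describes these letters only.

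Levels of different genes were compared per length, as counts per kilobase of merged exon, scaled to the library total (RPKM). Etv5 was the highest of the 10 in every group, at 233 ± 10.8 RPKM in vehicle, 194 in ISRIB, 137 in naive and 106 ± 20.7 in bleomycin libraries (SD where given, n = 4, 4, 4 and 5). Fgfr2 was the main receptor, at 85.6 ± 2.92 RPKM in vehicle libraries (n = 4), and Fgfr3 and Fgfr1 stood far below it at 5.34 and 1.00. Fgfr2 supplied 92.5% to 96.2% of the summed per-length level of Fgfr1 to Fgfr4 in every library, and Fgfr4 never exceeded 3 counts.

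Among the inhibitors, Spry1 (81.5 ± 8.05 RPKM in vehicle libraries, n = 4) lay next to Fgfr2, with ranges that overlapped, followed by Spry2 at 57.2, Spred1 at 29.1 and Spred2 at 18.2. Spry4 was at 0.87 RPKM, with a range that overlapped that of Fgfr1, and Etv4, the close relative of Etv5, at 0.064. The order of the 10 means was the same in vehicle, ISRIB and naive libraries. After bleomycin, Spry1 (37.1 RPKM), Spry2 (32.3) and Spred1 (29.5) had neighbouring ranges that overlapped, and Spry4 (1.71) and Etv4 (0.60) had higher means than Fgfr1 (0.40), with ranges of Etv4 and Fgfr1 that overlapped. The plot of levels per length shows these ranks. Leaving the ribosomal RNA-like models out of the total would raise every RPKM by 1.26 to 1.47 times in the total-RNA libraries, without altering the order within a library.

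**Figure D1:**
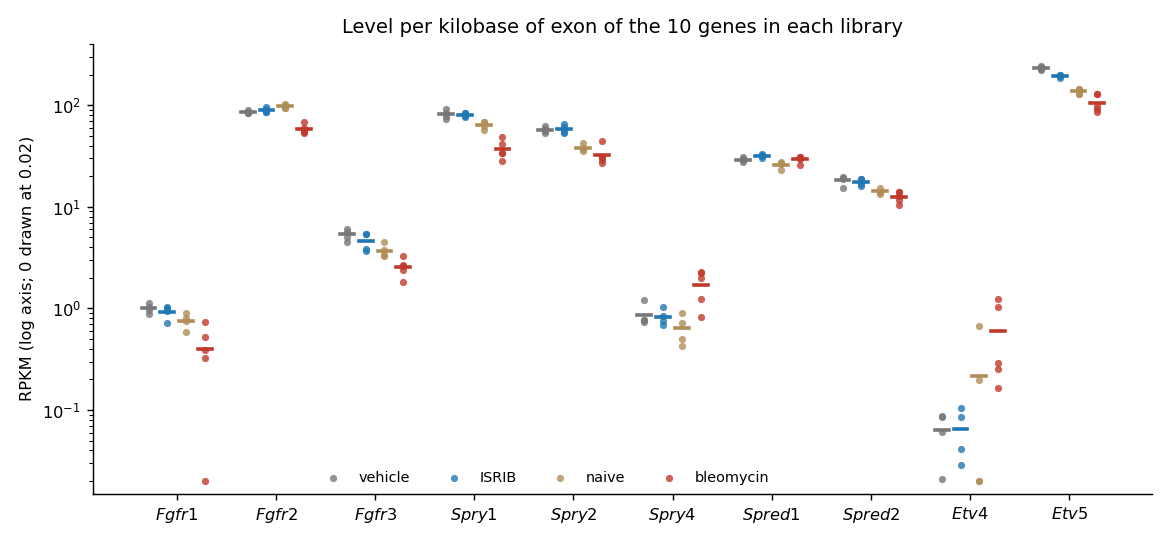
Level per length (RPKM, log scale) of the 10 genes in each of the 17 libraries, by group; each point is 1 library, each bar the group mean, and a level of 0 is drawn at the foot of the scale. Etv5, Fgfr2 and Spry1 lie at the top and Fgfr1, Spry4 and Etv4 at the bottom of the scale in the vehicle, ISRIB and naive groups.

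After bleomycin, the main receptor Fgfr2, the inhibitor Spry1 and the target factor Etv5 fell, as did the minor receptor Fgfr3, while the low-level inhibitor Spry4 rose. Fgfr1, Spry2, Spred1 and Spred2 did not pass the test. Of the 9 genes that passed the filter on low counts, 5 were called by edgeR's quasi-likelihood test (Benjamini-Hochberg adjusted p under 0.05 over 11223 genes), 4 of them lower and 1 higher. Over all genes tested, 20.5% were called, 9.31% lower and 11.2% higher. Bleomycin and naive libraries did not overlap for 4 of the 9, all lower after bleomycin, against 19.7% of all genes (9.35% lower, 10.4% higher). The median log2 fold change was -0.43 over the 9 and 0.00 over all genes. In bulk libraries, fewer cells of a type and less RNA per cell cannot be told apart.

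Fgfr2 (ENSMUSG00000030849, GRCm38 chromosome 7, 130162451 to 133123350) encodes the receptor for the FGF7 and FGF10 ligands made by the lung mesenchyme. Its level was 1061, 1035, 1005 and 1055 CPM in the naive libraries and 573, 528, 577, 632 and 655 CPM in the bleomycin libraries. All 5 bleomycin libraries lay below all 4 naive ones, with a wide gap between the groups. The means were 1039 ± 25.2 CPM (SD, n = 4) and 593 ± 50.7 CPM (n = 5), the latter 57.1% of the former. The log2 fold change was -0.81 (SE 0.11, edgeR adjusted p = 4.04e-05). The gene model shares 314 exonic bases with Ctbp2 on the same strand, and isoforms cannot be resolved in gene counts. Its span reaches upstream of the promoter shown, at 130266759 to 130267058, and all exons of the model enter the RPKM.

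Fgfr3 (ENSMUSG00000054252, chromosome 5, 33721674 to 33737068), a second receptor of the family, was at 29.5, 23.5, 24.6 and 31.9 CPM in naive and 19.8, 22.4, 12.7, 17.6 and 17.3 CPM in bleomycin libraries. The groups did not overlap, though bleomycin 2 came close to the lowest naive library. The log2 fold change was -0.61 (SE 0.19, edgeR adjusted p = 0.0303). The call was lost in 7 of 16 alternative analyses, over which the adjusted p ranged from 0.0102 to 0.116: without naive 1 (0.0892), naive 4 (0.116), bleomycin 3 (0.0779) or bleomycin 5 (0.0618), with library totals without factors, with no filter and with a replicate block. Fgfr1 (ENSMUSG00000031565, chromosome 8, 25513654 to 25575718), which is prominent in mesenchymal cells, was at 9.73, 5.77, 8.11 and 7.45 CPM in naive and 3.97, 7.04, 5.11, 0 and 3.01 CPM in bleomycin libraries. 4 of the 5 bleomycin libraries, all but bleomycin 2, lay below the naive range, and the 0 in bleomycin 4 allows a level of up to 0.928 CPM (3 counts, counting error only). The log2 fold change of -0.96 (SE 0.52) did not pass the test (edgeR adjusted p = 0.206).

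Exons of Fgfr1, Fgfr3 and Spry1 overlap models on the opposite strand, Gm16159 by 164 bases, G630022F23Rik by 998 and Gm42922 by 710. Whether counting used the strand is not stated, so reads in those bases cannot be assigned with certainty.

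**Figure D2:**
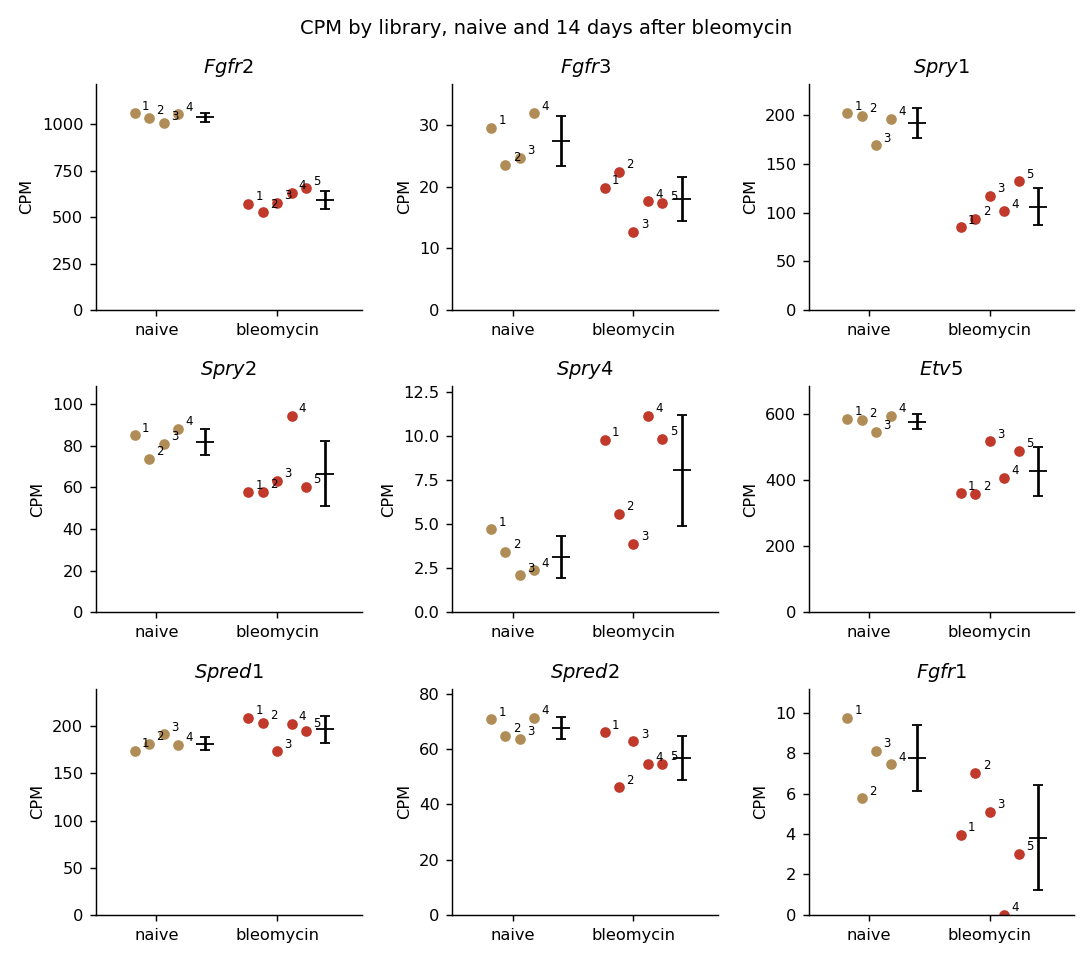
CPM of the 9 genes tested in the 4 naive and 5 bleomycin libraries; points are numbered by library, and the bar at the right of each group is the mean with its SD. Fgfr2, Fgfr3, Spry1 and Etv5 show no overlap between groups, and Spry2 in bleomycin 4 stands above every other library of its group.

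Of the Sprouty genes, whose products are induced by receptor signalling and dampen it, Spry1 (ENSMUSG00000037211, chromosome 3, 37639947 to 37644598) was called lower. It was at 202, 199, 169 and 196 CPM in naive and 84.6, 93.5, 117, 101 and 132 CPM in bleomycin libraries. Every bleomycin library lay below every naive one. The means were 192 ± 15.2 CPM (SD, n = 4) and 106 ± 19.0 CPM (n = 5), the latter 55.2% of the former. The log2 fold change was -0.85 (SE 0.13, edgeR adjusted p = 1.48e-04).

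Spry2 (ENSMUSG00000022114, chromosome 14, 105891947 to 105896819) was at 84.9, 73.7, 80.8 and 87.9 CPM in naive and 57.7, 57.7, 63.0, 94.4 and 60.2 CPM in bleomycin libraries. Bleomycin 4 lay above all naive libraries and the other 4 bleomycin libraries below them. With all libraries the log2 fold change was -0.30 (SE 0.15, edgeR adjusted p = 0.155); without bleomycin 4 it was -0.45 with an adjusted p of 0.00829, within a range of 0.00829 to 0.318 over the analyses that left out 1 library.

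Spry4 (ENSMUSG00000024427, chromosome 18, 38586247 to 38601415) moved the other way from a low level. It was at 4.70, 3.42, 2.10 and 2.38 CPM in naive (14, 16, 7 and 8 counts) and 9.79, 5.59, 3.87, 11.1 and 9.82 CPM in bleomycin libraries (37, 31, 25, 36 and 62 counts). 4 of the 5 bleomycin libraries lay above the naive range, and bleomycin 3 lay within it, so the groups overlapped. The ratio of the means was 2.55, with a log2 fold change of 1.33 (SE 0.41, edgeR adjusted p = 0.0277). The call was lost in 6 of 16 alternative analyses, with adjusted p from 0.0119 to 0.117: without naive 2 (0.0604), naive 3 (0.0883), naive 4 (0.0887) or bleomycin 5 (0.0603), with limma-voom and with a replicate block. Spry1 made up 59.8% to 65.6% of the summed per-length level of the 3 Sprouty genes in naive and 42.3% to 59.5% in bleomycin libraries, and Spry4 0.45% to 0.89% and 1.14% to 3.50%. These shares are given without a test.

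The Sprouty-related inhibitors Spred1 and Spred2, which act on RAS activation, showed smaller differences. Spred1 (ENSMUSG00000027351, chromosome 2, 117121374 to 117182279) was at 174, 181, 192 and 180.3 CPM in naive and 209, 204, 173, 203 and 195 CPM in bleomycin libraries, with bleomycin 3 below and the other 4 above the naive range. Its log2 fold change was 0.11 (SE 0.10, edgeR adjusted p = 0.486). Spred2 (ENSMUSG00000045671, chromosome 11, 19924375 to 20024026) had a log2 fold change of -0.25 (SE 0.13, edgeR adjusted p = 0.182), from 67.6 ± 3.96 CPM (SD, n = 4) to 56.9 ± 7.85 CPM (n = 5), with bleomycin 1 inside the naive range and the other 4 below it.

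Etv5 (ENSMUSG00000013089, chromosome 16, 22381309 to 22439719) was at 586, 582, 546 and 596 CPM in naive and 362, 359.8, 519, 408 and 489 CPM in bleomycin libraries. All 5 bleomycin libraries lay below the naive range, with bleomycin 3 and 5 nearest to it. The log2 fold change was -0.43 (SE 0.13, edgeR adjusted p = 0.0199), or 74.0% of the naive mean. The call was lost in 5 of 16 alternatives, with adjusted p from 0.00372 to 0.0716: with library totals without factors (0.0716), without naive 1 (0.0534), naive 2 (0.0519) or naive 4 (0.0649), and in the analysis described next. Bleomycin 1 and 2, the 2 libraries with the highest fibroblast and lowest AT2 marker sums (56.9 and 115 CPM, 50345 and 59313 CPM), also had the lowest Etv5. Among the bleomycin libraries, they also had the lowest Fgfr2, Spry1 and Spry2 and the highest Fgfr3 and Spred1. Without both, in an analysis added after the data were seen, the log2 fold change of Etv5 was -0.29 (edgeR adjusted p = 0.0550). Those of Fgfr2 and Spry1 were then -0.74 and -0.70 (edgeR adjusted p = 3.32e-05 and 3.17e-04). The part of those markers in these results was not tested.

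Etv4 (ENSMUSG00000017724, chromosome 11, 101769742 to 101785371), induced with Etv5 by FGF signalling in the developing lung, was below the filter on low counts. It had 2, 0, 0 and 7 counts in naive and 15, 17, 5, 3 and 3 counts in bleomycin libraries, the 2 highest again being bleomycin 1 and 2. With no filter the log2 fold change was 1.44 (edgeR adjusted p = 0.332). Etv5 made up at least 98.6% of the summed per-length level of the 2 genes in every library.

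The calls of Fgfr2 and Spry1 held in all 16 alternatives, with log2 fold changes of -0.85 to -0.74 and -0.95 to -0.70. Markers of other epithelial states moved in the same libraries. The summed level of 8 transitional epithelial markers was 341 to 382 CPM in naive and 730 to 1111 CPM in bleomycin libraries (8 of 8 tested called higher). That of 10 alveolar type 1 markers was 1396 to 1621 and 2126 to 2645 CPM (7 of 9 tested called higher). Both counts stand beside 11.2% called higher over all genes. Of 10 AT2 markers, Sftpd and Napsa were called higher and Nkx2-1 lower by edgeR (log2 fold changes 0.58, 0.40 and -0.46). Over all genes, 11.2% were called higher and 9.31% lower. DESeq2 and limma-voom each called 5 of the 10, beside 17.9% and 19.6% of all genes by these tools. By edgeR, 7 of the 10 had a negative and 3 a positive log2 fold change. The summed level of the 10 was 80561 to 87948 CPM in naive and 50345 to 88471 CPM in bleomycin libraries. The part of these cell states in the changes of the FGF genes was not tested.

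After ISRIB, Etv5 was the one gene of the 10 that was called, and it was lower. The 9 genes that passed the filter were tested among 12054 genes, of which 2.20% were called, 1.10% lower and 1.10% higher. Etv5 was also the 1 gene of the 9 whose groups did not overlap, against 8.65% of all genes (4.39% lower, 4.26% higher). 6 of the 9 had a negative and 3 a positive log2 fold change, with a median of -0.07.

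Etv5 was at 999, 991, 923 and 942 CPM in vehicle and 809.9, 797, 805 and 759 CPM in ISRIB libraries. All 4 ISRIB libraries lay below all 4 vehicle libraries. The means were 964 ± 37.3 and 793 ± 23.3 CPM (SD, n = 4 each), the latter 82.2% of the former. The log2 fold change was -0.28 (SE 0.05, edgeR adjusted p = 0.00817). The call held in all 14 alternative analyses, with log2 fold changes of -0.30 to -0.26 and adjusted p up to 0.0420. The summed level of transitional epithelial markers was 452 to 554 CPM in vehicle and 401 to 469 CPM in ISRIB libraries. Hbegf and Krt19 were called lower among 8, beside 1.10% called lower over all genes. The part of these markers in the result was not tested. Etv4 had 1 to 3 counts in vehicle and 1 to 4 counts in ISRIB libraries.

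**Figure D3:**
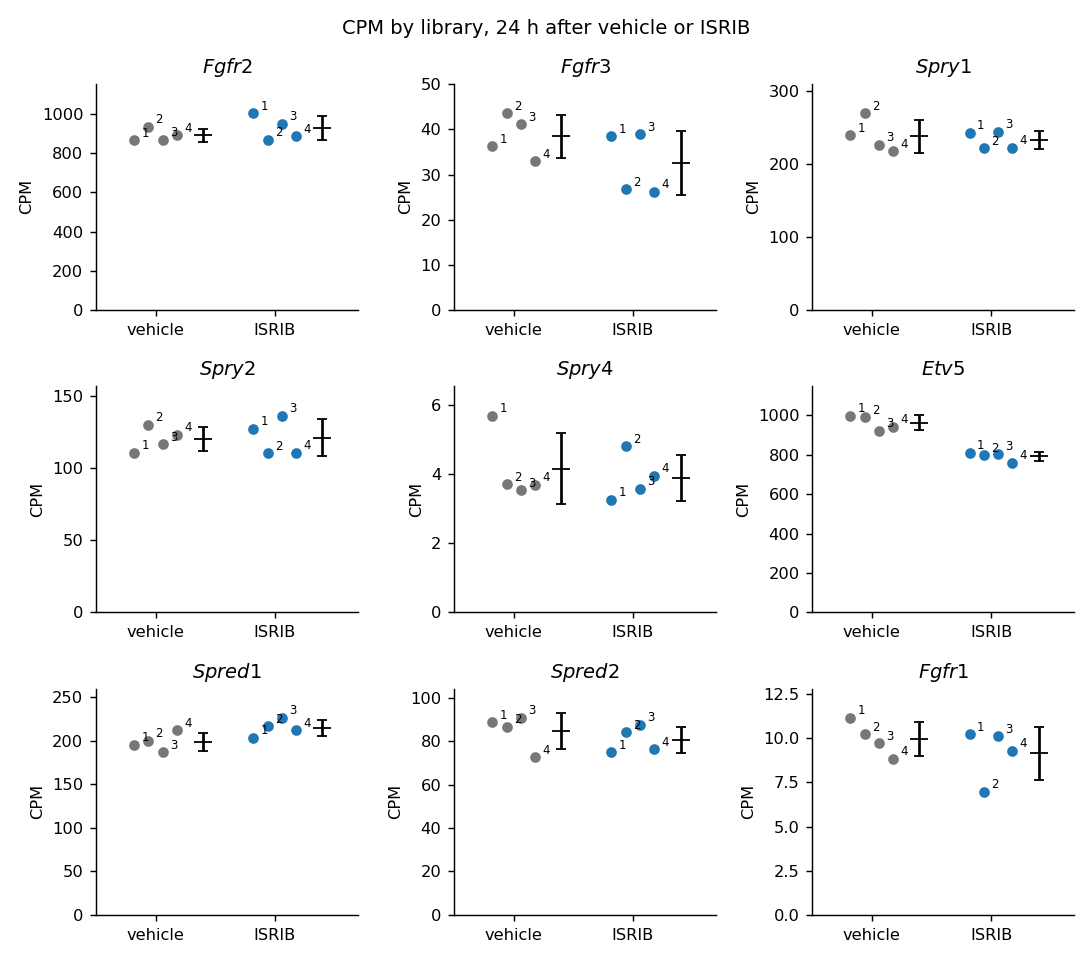
CPM of the 9 genes tested in the 4 vehicle and 4 ISRIB libraries; points are numbered by library, and the bar at the right of each group is the mean with its SD. Etv5 separates the groups (759 to 809.9 against 923 to 999 CPM), and the other genes overlap.

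The receptors did not pass the test after ISRIB. Fgfr2 was at 866, 936, 868 and 892 CPM in vehicle and 1004, 868, 950 and 886 CPM in ISRIB libraries, with overlapping groups and a log2 fold change of 0.06 (SE 0.06, edgeR adjusted p = 0.676). Fgfr3 was at 36.2, 43.6, 41.1 and 32.9 CPM in vehicle and 38.4, 26.7, 38.9 and 26.1 CPM in ISRIB libraries. ISRIB 2 and 4 lay below the vehicle range and ISRIB 1 and 3 within it, and the log2 fold change was -0.24 (SE 0.12, edgeR adjusted p = 0.366). Fgfr1, at 9.97 ± 0.96 and 9.15 ± 1.51 CPM (SD, n = 4 each), had a log2 fold change of -0.12 (SE 0.14, edgeR adjusted p = 0.729).

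The inhibitors also stayed short of the threshold. Spry1 was at 239, 269.8, 227 and 218 CPM in vehicle and 243, 222, 244 and 223 CPM in ISRIB libraries, the latter all inside the vehicle range (log2 fold change -0.03, SE 0.06, edgeR adjusted p = 0.866). Spry2 and Spry4 had log2 fold changes of 0.01 (SE 0.07) and -0.09 (SE 0.21), with edgeR adjusted p of 0.959 and 0.884. Spred1 had the lowest adjusted p of the inhibitors, 0.329 by edgeR, at a log2 fold change of 0.11 (SE 0.05), with 199 ± 10.6 CPM in vehicle and 215 ± 9.30 CPM in ISRIB libraries (SD, n = 4 each). Spred2 had a log2 fold change of -0.07 (SE 0.07, edgeR adjusted p = 0.697). The plot of fold changes sets both experiments side by side; no test compared them with each other, as they differ in kit, depth and agent.

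**Figure D4:**
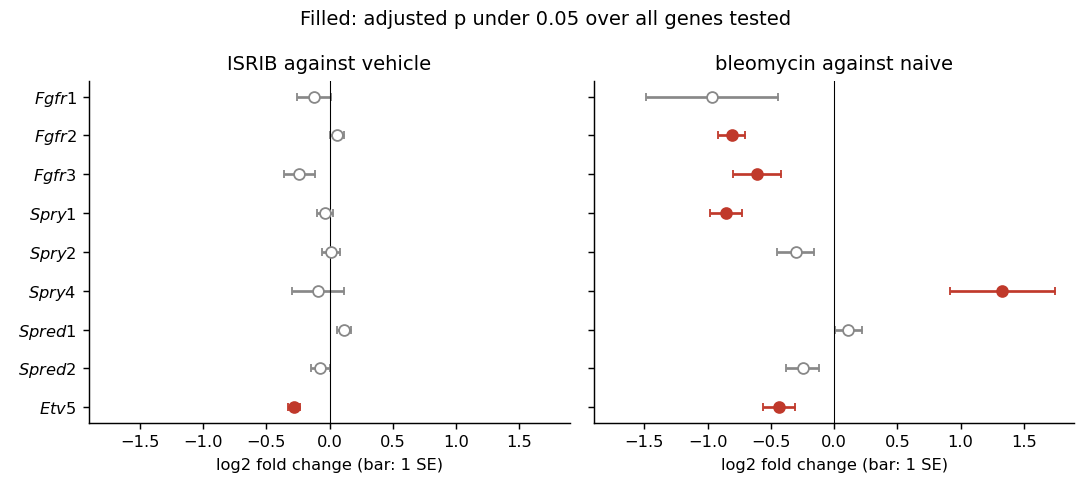
log2 fold change with its SE for the 9 genes tested, ISRIB against vehicle and bleomycin against naive; filled points have an adjusted p under 0.05. Etv5 is filled and negative in both comparisons, at -0.28 and -0.43, and Spry4 alone is filled and positive, at 1.33 after bleomycin.

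Of the other genes of the pathway, 1 of 18 FGF ligand genes passed the filter in either experiment. This was Fgf1, which fell after bleomycin from 182 ± 16.2 to 115 ± 19.2 CPM (log2 fold change -0.66, edgeR adjusted p = 0.00151) and was at 0.11 after ISRIB (adjusted p = 0.386). Of 9 other receptors and co-receptors, 3 were tested in the bleomycin experiment. Of these, 1 was called higher and 1 lower, beside 11.2% and 9.31% over all genes. The FGF-binding protein Fgfbp1, a secreted carrier that releases FGF from the matrix, fell (-1.57 on the log2 scale, edgeR adjusted p = 5.29e-04). The receptor-binding membrane protein Flrt3 rose (1.16, edgeR adjusted p = 0.00966), with groups that overlapped. After ISRIB, 5 were tested and 0 called by edgeR, with 2 at an unadjusted p under 0.05, 1 called by DESeq2 and 0 by limma-voom.

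Heparan sulfate carriers and enzymes carry, build or trim the co-factor for ligand binding, so they do not share 1 direction of effect. Of 13 tested after bleomycin, 5 were called higher and 0 lower, beside 11.2% higher and 9.31% lower over all genes. Their median log2 fold change was 0.38, beside 0.00 over all genes. The glypican Gpc3 rose from 9.31 ± 1.75 to 50.9 ± 13.9 CPM (log2 fold change 2.43, edgeR adjusted p = 9.95e-07). The 6-O-endosulfatase Sulf2 (1.12), the sulfotransferases Hs2st1 (0.73) and Ndst1 (0.45) and the syndecan Sdc1 (0.40) were also called higher. After ISRIB, 1 of 14 was called, beside 2.20% of all genes. It was the 6-O-sulfotransferase Hs6st1, at a log2 fold change of 0.28 (edgeR adjusted p = 0.0370).

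Downstream of the receptor, 2 of 12 adaptors tested were called after bleomycin, Gab2 higher (log2 fold change 1.00) and Plcg1 lower (-0.45). Of 14 genes of the RAS to ERK cascade, 1 was called, Hras, higher (0.57) with groups that overlapped. Both counts stand beside 20.5% called over all genes. After ISRIB, 0 of 13 adaptors and 0 of 15 cascade genes were called by edgeR, with 4 and 1 at an unadjusted p under 0.05 and 0 by DESeq2 or limma-voom. Of the other ERK feedback genes, Ier3 (1.10) and Dusp7 (0.78, groups overlapping) were called higher among 6 tested after bleomycin, beside 11.2% called higher over all genes. The ERK phosphatase gene Dusp6 was at 0.23 there (edgeR adjusted p = 0.343). Dusp6 was the 1 of 9 called after ISRIB, lower at -0.59 (edgeR adjusted p = 4.53e-04). Over all genes, 2.20% were called after ISRIB.

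Other ETS factors share the core motif bound by ETV4 and ETV5. After ISRIB, 0 of 16 tested were called higher and 2 lower, beside 2.20% called over all genes. After bleomycin, 2 of 15 tested were called higher and 1 lower, beside 11.2% and 9.31% over all genes. Ehf was called lower in both experiments. It went from 199 ± 14.7 to 160 ± 6.10 CPM after ISRIB (log2 fold change -0.32, edgeR adjusted p = 0.00961). After bleomycin it went from 199 ± 18.8 to 139 ± 20.5 CPM (-0.52, edgeR adjusted p = 0.00586). Elf3 was called lower after ISRIB (-0.28, adjusted p = 0.0208) and was at 0.18 after bleomycin (adjusted p = 0.361). Ets1 (1.05) and Etv6 (0.79) were called higher after bleomycin. The plot of the pathway lists shows that calls in both directions occurred after bleomycin, with Fgfr2, Fgfr3 and Fgf1 on the lower side.

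**Figure D5:**
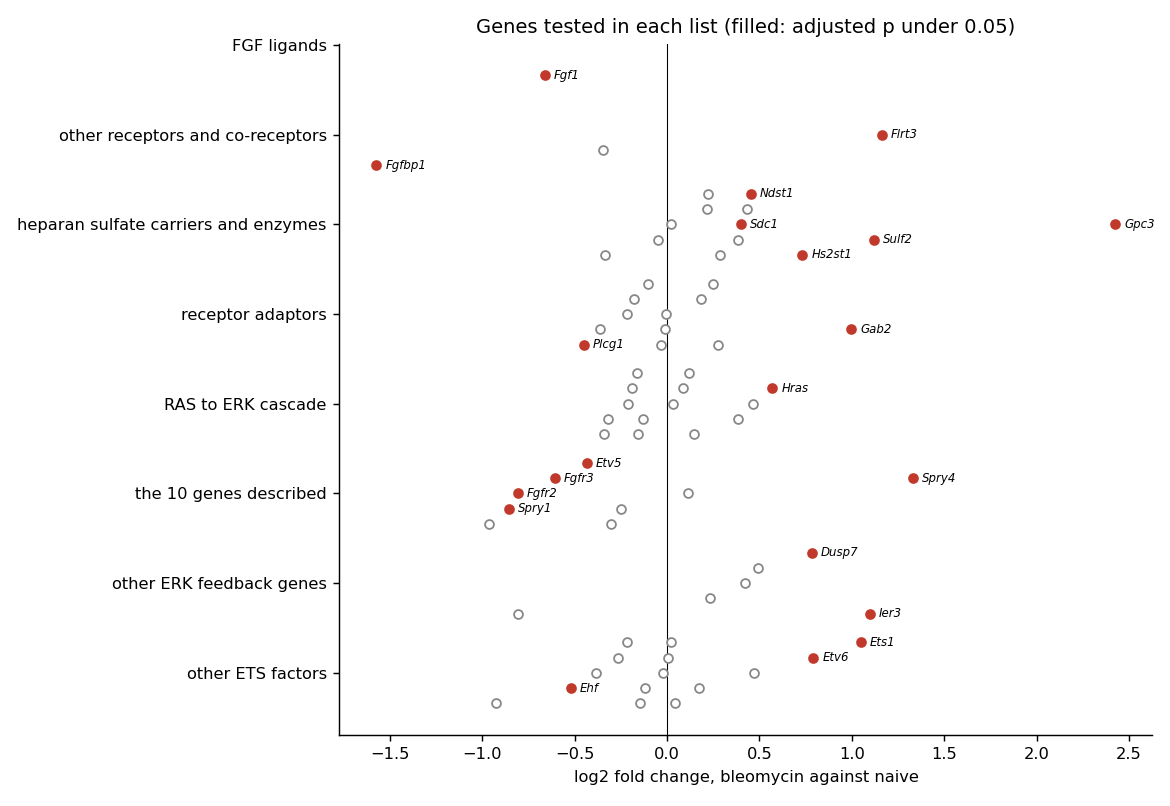
log2 fold change of every gene tested, bleomycin against naive, by pathway list; each point is 1 gene, filled where the adjusted p is under 0.05, and its height within a list only separates the points. All 5 filled heparan sulfate genes lie to the right of 0, and of the 10 genes described Fgfr2, Fgfr3, Spry1 and Etv5 lie to the left and Spry4 to the right.

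The genes most like Fgfr2, Spry2 and Etv5 were sought over all 17 libraries, by the Pearson correlation of log2 CPM after subtracting the mean of each experiment's controls, among 8799 other genes. For Fgfr2 they were Aox3 (r = 0.983), Deptor (0.983) and Fam210a (0.979), with Spry1 ranking 30. Over the 8 poly(A) libraries alone these correlations were 0.574, 0.436 and 0.630, and that of Spry1 was 0.571. The rest of the set ranked lower for Fgfr2: Spry2 1135, Etv5 1233, Fgfr3 1332, Spred2 1692, Fgfr1 2206 and Spred1 5817 (r = -0.357). For Spry2 the genes most like it were Cmtm8 (0.924), Epc2 (0.916) and Use1 (0.886), at 0.948, 0.711 and 0.775 in the poly(A) libraries. Of the set, Fgfr2 ranked 330, Spry1 699, Fgfr3 1166, Etv5 1639, Spred2 2044, Fgfr1 4595 and Spred1 5272 for Spry2. For Etv5 the genes most like it were Acly (0.952), Tmem121b (0.928) and Rtkn (0.927), with Spry1 ranking 84. In the poly(A) libraries they were at 0.850, 0.928 and 0.960, and Spry1 at 0.359. The rest of the set ranked lower for Etv5: Fgfr2 503, Spred2 947, Spry2 1820, Fgfr3 1875, Fgfr1 2000 and Spred1 8621 (r = -0.766). Acly, Tmem121b and Rtkn were called lower in both experiments, Acly at log2 fold changes of -0.26 after ISRIB and -0.49 after bleomycin, Tmem121b at -0.51 and -1.66, and Rtkn at -0.27 and -0.57. The points share libraries, depth and the group differences themselves, and the correlations are given as a description. Etv5 was itself called lower in both experiments, so genes picked for likeness to it tend to be lower by that choice. The calls of Acly, Tmem121b and Rtkn are therefore no separate evidence.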

How the data were processed

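RNA sequencing counts of 17 libraries were analysed. The deposited values are raw counts of reads per gene for 43430 Ensembl IDs, 1 table per kit. Per the submitters' processing notes, bcl2fastq 2.19.1, FastQC, Trimmomatic 0.36, STAR 2.6.0 and HTSeq 0.11.2 were used with mm10, while no annotation release or strand setting is stated. Genes were named from GENCODE M21 (GRCm38, the same assembly as mm10), which also gave the exon lengths for RPKM.

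Each experiment was fitted on its own with edgeR 4.0.16 in R 4.3.3: filterByExpr (minimum count 10, minimum total 15), TMM factors, group as the only term, the two-sided quasi-likelihood F test and Benjamini-Hochberg adjustment over all genes tested, at 0.05. CPM used TMM-scaled totals. SE is the log2 fold change over the square root of F. Alternatives were DESeq2 1.42.0, limma-voom (limma 3.58.1), RLE factors, totals without factors, no filter, a replicate block and leaving out each library. Between replicates, chi-squared per degree of freedom was 3.52 to 9.03 in the poly(A) table and 4.08 to 47.0 in the total-RNA table, so no pair agreed within counting error. The labels mention no molecular identifiers.

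All 10 genes were named whatever their values, as were the called genes of the pathway lists, up to 5 per list, and the 3 genes most like each of Fgfr2, Spry2 and Etv5, with a mean of at least 5 CPM in each table and a pseudocount of 0.5 CPM, passing over gene models without an approved-style name. The 10 genes and the lists were chosen with earlier results of these data known. Etv1 is in both the ERK feedback and the ETS list. Tested on simulated counts with 1 log2 unit of change, the fit recovered 89.4% of 198 changed genes for ISRIB (12054 genes) and 56.0% of 193 for bleomycin (11223 genes). The 10 genes changed by far less than that unit after ISRIB, so the first share does not apply to them. The bleomycin data gave 2304 calls, far more than the genes changed in the simulation, so the second share may differ there.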

Additional observations from a re-analysis of the deposited data

Results flagged for a closer look

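Of 40 groups of values examined, 2 held a library far from the others. This is no more than the rate of about 1 in 20 that chance gives. Spry4 in vehicle 1 was at 5.70 CPM, while the other 3 vehicle libraries lay between 3.54 and 3.71 CPM. Spry2 in bleomycin 4 was at 94.4 CPM, while the other 4 bleomycin libraries lay between 57.7 and 63.0 CPM. Bleomycin 4 also had the lowest mean rank correlation with its own group, 0.937. The cause of either value was not tested.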

How the results depend on the processing

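After ISRIB, the number of genes called over the whole table was 265 and rose to 648 with no filter on low counts and to 400 with DESeq2. It ranged from 86 to 269 when 1 library was left out, with 86 without vehicle 1, 102 without vehicle 2 and 159 without ISRIB 4. The 265 calls split into 133 higher and 132 lower, and into 169 and 111 with library totals without factors. Etv5 was the 1 gene of the 10 called in all 14 alternatives. Directions that turned belonged to log2 fold changes near 0: leaving out 1 library gave -0.046 to 0.056 for Spry2, -0.21 to 0.093 for Spry4 and -0.077 to 0.031 for Spry1.

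After bleomycin, no log2 fold change of the 9 genes turned under 16 alternatives. The number called was 5, and 3 with library totals without factors. It ranged from 2 to 6 when 1 library was left out: 2 without naive 4, 3 without naive 1, naive 2 or bleomycin 5, and 6 without bleomycin 4. Fgfr3, Spry4 and Etv5 were the genes that lost their call. The number over the whole table was 2304 with all libraries, 1554 to 2584 when 1 library was left out, and 2589 with no filter. The 2304 calls split into 1259 higher and 1045 lower. The split was 1479 and 814 with library totals without factors, and 1024 and 1178 with limma-voom.

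Whether equal replicate numbers mark pairs is not known. Deviations of same-numbered libraries correlated at -0.11 to 0.08 for ISRIB and -0.04 to 0.05 for bleomycin. Those of differently numbered libraries correlated at -0.17 to 0.14 and -0.16 to 0.11. These values show no pairing but cannot exclude it. With the replicate block, 3 of the 10 genes were called after bleomycin and 1 after ISRIB, and 2187 and 277 genes over the whole tables. Number 5 occurs only after bleomycin, so the block takes up bleomycin 5 and that library adds nothing to the blocked estimate. The block and the analysis without bleomycin 5 are therefore not separate alternatives. Depth limited Spry4, Etv4 and Fgfr1, with 0 to 62 counts of Spry4 or Etv4 in any total-RNA library.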

Other observations

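Within the ISRIB group, libraries 1 and 3 both lay above libraries 2 and 4 for 6 of the 10 genes (Fgfr1, Fgfr2, Fgfr3, Spry1, Spry2 and Etv5) and below them for Spry4. Over the 12054 genes tested, 21.6% lay above and 21.6% below in this way. The summed AT2 markers were 189376 and 189165 CPM in ISRIB 1 and 3 against 176929 and 178795 CPM in ISRIB 2 and 4, and the summed airway markers 4165 and 4031 against 3279 and 2367 CPM. The order was noticed in the values and its cause was not tested.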
